A study of Mus musculus with 9 samples.

Results

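The antiviral interferon-stimulated genes are transcripts that a cell raises after it has met an interferon or a viral nucleic acid. Interferon binds a receptor pair at the cell surface, the kinases JAK1, TYK2 and JAK2 phosphorylate STAT proteins, and a complex that includes STAT2 and IRF9 binds a short DNA element, the interferon-stimulated response element, in front of these genes. Their products bind foreign RNA, cut it, block its translation or hold virus particles at membranes, and in macrophages they are also raised by bacterial products that act through Toll-like receptors. Here 40 such genes were chosen by symbol from 23282 gene rows, with earlier results of these data known. The guanylate-binding proteins, the immunity-related GTPases, the interferon regulatory factors and the STAT proteins were left out. The 40 members comprise 3 IFIT genes, 6 genes of the OAS family, 6 sensors of nucleic acid and their effectors, 4 genes of the ISG15 system, 4 genes of the PARP and DTX3L group, 8 further antiviral effectors and 9 other interferon-induced genes. Every member had a row in each library.

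RNA was measured in RAW264.7 cells, a mouse macrophage line of the BALB/c strain at passage 30. Under RANKL, a cytokine of bone and immune cells, this line turns into osteoclast-like cells. The negative control received RANKL alone at 50 ng/mL, a second group received RANKL together with 10 µg/mL of surface proteins extracted from Propionibacterium freudenreichii MJ2, a dairy bacterium, and another group received heat-killed cells of the same strain at 10000000 cells/mL. Each group held 3 libraries and treatment lasted 4 days. Whether each heat-killed MJ2 library also came from cells given RANKL is not stated in its labels. The labels name no separate cultures, so p-values measure the spread between these libraries, which may be technical. All libraries are of 1 cell line, and the labels name blood lymph as its tissue.

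Values are given as adjusted reads, that is, 2 raised to the deposited log2 value, minus 1. Reads come from the 3′ ends of transcripts only, and no value is divided by transcript length. A gene is said to have risen or fallen, or to have passed, where its limma p, adjusted by Benjamini-Hochberg over all rows tested, was below 0.05 and its level had at least doubled or been cut by as much. Library totals lay between 5930926 and 6503682 adjusted reads, and a gene with no read in a library may still be present at up to 3 reads, a floor that covers counting error only. Of 10 macrophage markers, 9 were above 100 adjusted reads in at least 1 library and Mertk was at 0 throughout, with list sums of 15735 to 17493 with RANKL alone, 23128 to 23737 with heat-killed MJ2 and 19512 to 21170 with surface proteins. Within the list the markers moved in different directions. With surface proteins Csf1r fell by 1.47 on the log2 scale. Fcgr1 rose by 6.71, Adgre1 by 3.81, Itgam by 3.01, Lyz2 by 2.48 and Cd14 by 2.37 (limma, adjusted p between 0.00023 and 0.012 for these markers). So 5 of the 9 markers tested rose and 1 fell, against 10.2% and 7.32% of all rows tested. With heat-killed MJ2 4 of the 9 rose, against 3.37%. They were Fcgr1 (4.04), Cd14 (3.10), Lyz2 (2.79) and Itgam (2.26), while Csf1r at -0.62 did not pass. The sum of 10 osteoclast markers was 20914 to 33120 with RANKL alone, 13868 to 16029 with heat-killed MJ2 and 5262 to 7864 with surface proteins, so it was lower in both treated groups. With surface proteins 7 of the 9 osteoclast markers tested fell, against 7.32% of all rows tested. With heat-killed MJ2 3 of the 9 did (Acp5, Nfatc1 and Atp6v0d2), against 0.897%, while Mmp9 and Itgb3 were at log2 fold changes of 0.58 and 0.34 that did not pass. The part of this change in the results was not tested, and in bulk RNA fewer cells of a type and less RNA per cell cannot be told apart. The sums of the T cell, B cell, fibroblast and epithelial lists did not pass 41.8 in any library. Of the 4 neutrophil markers in the files only S100a8 was present, at 0 to 0.11 adjusted reads with RANKL alone, 1899 to 2056 with heat-killed MJ2 and 113 to 209 with surface proteins, whereas S100a9 did not exceed 1 read and Mpo and Elane were at 0.

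In 31 members a promoter of RefSeq (GRCm38.p6), 250 bases before to 50 bases after the start of transcription, could be searched for the core letters of the interferon-stimulated response element, GAAA and a second GAAA with any 2 bases (NN) between them, on both strands. The letters were found in 14 of the 31 genes (45.2%), against 3.99% of 27025 genes of the same table. The letters TTC and GAA with any 3 bases between them, a site of STAT dimers, were found in 8 of the 31 (25.8%), against 9.55% of all genes. In 10 of the 14 a match lay before an annotated start, and in Ddx58, Eif2ak2, Ifih1 and Ifitm3 the matches lay only after it. Stretches of 6 of the 10, those that overlap no annotated gene, are printed to show the matched letters and their surroundings. These genes come from 4 of the role groups. Matched letters are in capitals and overlapping matches are joined. Each sequence runs 5′ to 3′ along the strand of the gene, which is the minus strand in all 6.
Isg15, chr4:156200850-156200909: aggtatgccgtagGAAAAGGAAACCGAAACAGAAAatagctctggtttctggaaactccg
Bst2, chr8:71537562-71537621: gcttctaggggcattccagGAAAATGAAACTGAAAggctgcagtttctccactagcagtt
Oas1g, chr5:120887614-120887650: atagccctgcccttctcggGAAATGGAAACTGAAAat
Oas3, chr5:120777700-120777759: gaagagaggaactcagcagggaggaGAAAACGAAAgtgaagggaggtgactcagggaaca
Rsad2, chr12:26456538-26456597: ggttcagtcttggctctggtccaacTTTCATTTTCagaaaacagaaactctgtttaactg
Trim30a, chr7:104465195-104465254: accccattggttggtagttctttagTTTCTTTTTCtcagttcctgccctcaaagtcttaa
Isg15 carried 3 overlapping matches, Bst2 and Oas1g carried 2 overlapping matches each, and Rsad2 and Trim30a carried 1 match on the opposite strand. The distance from the last matched base to the start was 3 bases in Oas1g, 27 in Trim30a, 57 in Isg15, 66 in Oas3, 111 in Rsad2 and 115 in Bst2. Trim30a has another annotated start within the gene, and a separate match begins 2 bases after that start. With surface proteins the median log2 fold change against RANKL alone was 2.90 for the 14 genes with a match and 1.86 for the 15 tested genes of the 17 without one, and with heat-killed MJ2 the medians were 2.41 and 2.01 (14 and 16 tested genes). A match is a description of the letters in this window, and no difference between these medians was tested. Parp9, Parp14, Mx2, Zbp1, Usp18, Mx1, Oas2, Rtp4 and Dhx58 were not matched.

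Several members lie side by side. Rsad2 and Cmpk2 on chromosome 12 are transcribed away from each other with their starts 12752 bases apart, and Dtx3l and Parp9 on chromosome 16 are divergent with overlapping ends, their starts 681 bases apart (GENCODE annotation of GRCm38). Oas2 with Oas3, Oas1g with Oas1a, and Oasl2 with Oasl1 are neighbours on chromosome 5, and Ifit2 with Ifit3 on chromosome 19. Of the 75-base words in the last 500 bases of the Oas1a transcript, 46.0% also occur in Oas1g, and 18.5% of those of Oas1g occur in Oas1a, so reads may have been divided between this pair in a way that is uncertain. Ifit3 shared 9.86% of its words with Ifit3b. The 3′ ends of Slfn2, Dhx58, Parp9, Adar and Usp18 overlap an annotated gene on the other strand, and the strand setting of the counting is not given in the sources used here.

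Together the 40 members made up 0.147%, 0.152% and 0.107% of the adjusted reads of the 3 RANKL libraries, 0.422%, 0.589% and 0.417% with heat-killed MJ2, and 0.426%, 0.466% and 0.442% with surface proteins. All 6 treated libraries were above all 3 RANKL libraries, and the treated groups overlapped each other. Ifitm3, a membrane protein that hinders virus entry, held 53.3% of the member sum with RANKL alone, 43.8% with heat-killed MJ2 and 40.2% with surface proteins. The median member had 62.0 adjusted reads with RANKL alone, 314 with heat-killed MJ2 and 353 with surface proteins, and 9 members were under 10 adjusted reads with RANKL alone. These 9 could only enter a test through the treated libraries, so counts below are given out of 40 and again for the 31 members with a RANKL mean of at least 10.

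**Figure D1:**
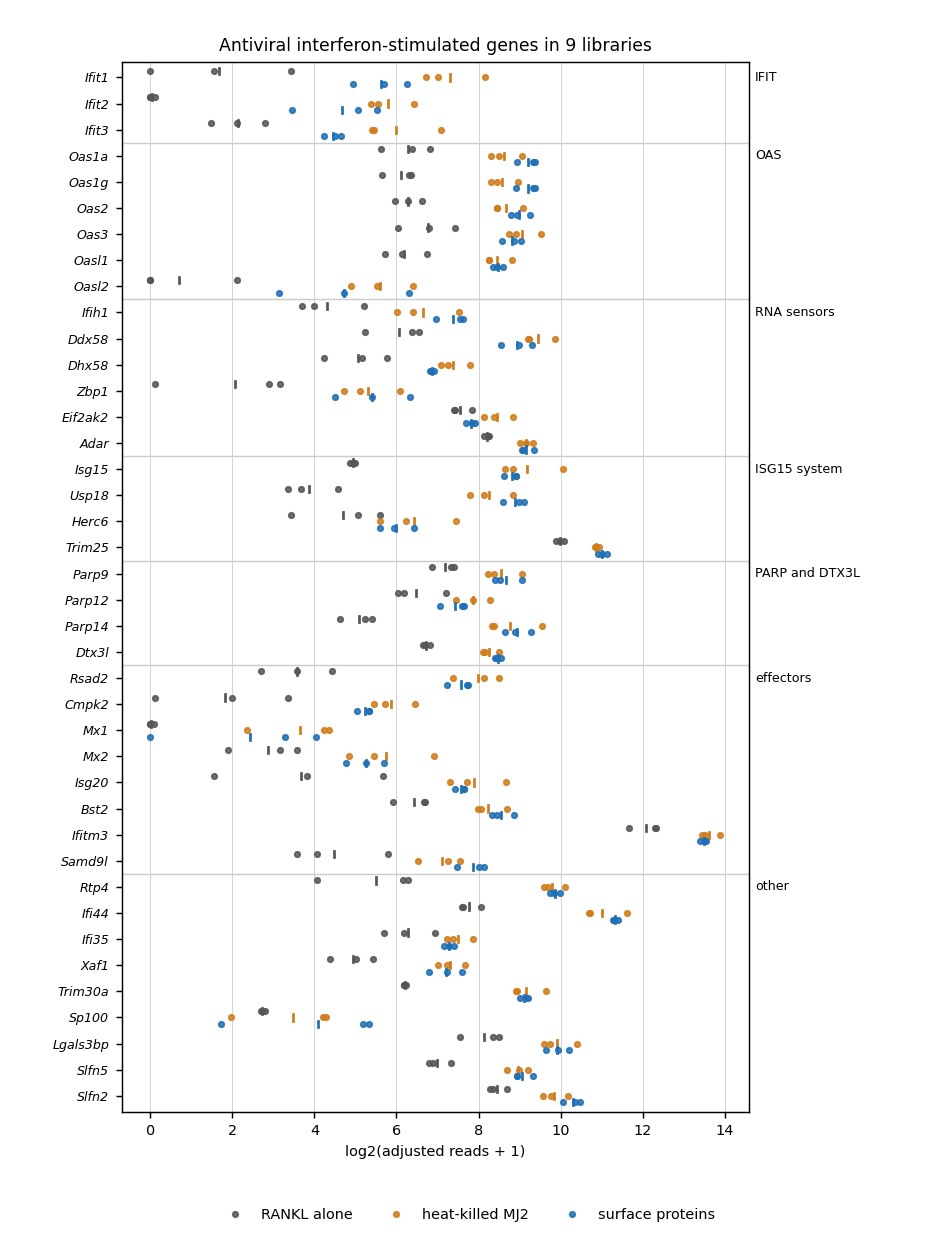
Level of each of the 40 members in the 9 libraries, as log2(adjusted reads + 1), ordered by role. Dots are libraries (3 per group) and short bars are group means. All surface protein libraries lie to the right of all RANKL libraries in 34 of the 37 members tested, against 24.7% of rows tested. All heat-killed MJ2 libraries do so in 37 of the 38 members tested, against 15.4%.

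Replicate 2 of heat-killed MJ2 stood apart from the rest of its group. Over 7226 and 7207 genes it differed from replicates 1 and 3 by a chi-square per degree of freedom of 17.7 and 16.1, where that between those replicates was 7.47 and pairs of the other groups had 12.4 to 21.2. It was the highest of its group in 38 of 40 members, against 38.05% of 10871 rows, and its members lay at a median of 0.45 above the group mean on the log2 scale. Replicate 2 was also the highest in 25 members with RANKL alone and in 26 with surface proteins. The median standard deviation of a member on the log2 scale was 0.52 with RANKL alone, 0.42 with heat-killed MJ2 and 0.25 with surface proteins. The 10871 rows with a mean of at least 10 adjusted reads over the 9 libraries had 0.24, 0.22 and 0.24. The members spread more than these rows with RANKL alone and heat-killed MJ2, and were close to them with surface proteins. The sets were not matched by level, and 9 members were under 10 adjusted reads with RANKL alone. No cause of this spread was tested.

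**Figure D2:**
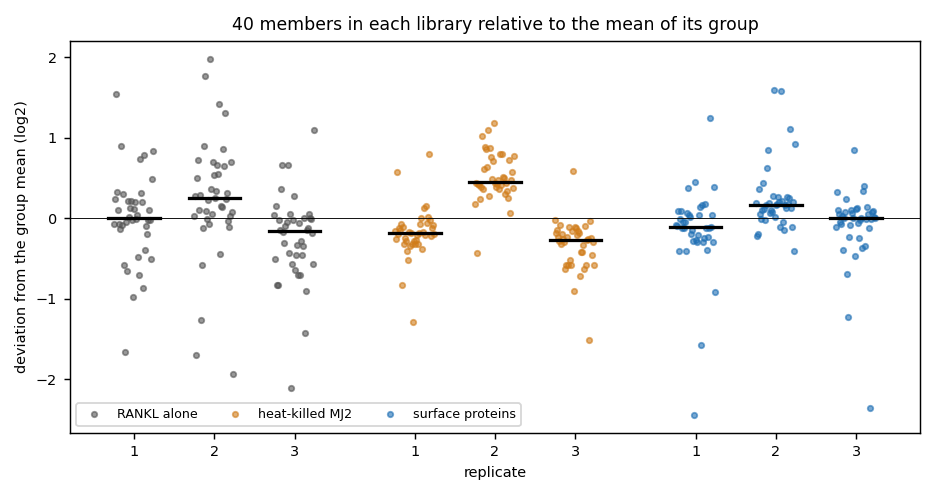
Deviation of each of the 40 members from the mean of its group on the log2 scale, for each of the 9 libraries. Each dot is 1 member and the black bar is the median, which is 0.45 for replicate 2 of heat-killed MJ2 and -0.27 for its replicate 3.

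The first question was which antiviral genes differ when surface proteins are added to RANKL. With surface proteins, 32 of the 40 members rose and none fell (limma), where 10.2% of 10874 rows tested rose and 7.32% fell. The members were chosen with earlier results known, so this contrast and those below describe the list and do not test it. Of 41 further interferon-induced genes outside the list, 33 were tested and 17 rose. Among the 31 members with a RANKL mean of at least 10, 26 rose, against 8.24% of the rows filtered alike. The median log2 fold change of these 31 was 2.26, where that of the rows filtered alike was -0.031, and with the members that entered through the treated libraries it was 2.37. Eif2ak2, Adar, Herc6, Parp12 and Ifi35 were tested and did not pass, and Oasl2, Mx1 and Sp100 were too low in the 6 libraries to be tested. In 34 of the 37 members tested every surface protein library was above every RANKL library, against 24.7% of the rows tested, and in 28 of the 31 members with a RANKL mean of at least 10, against 23.0% of the rows filtered alike. With no filter on low values 29 members passed, and Cmpk2, Isg20 and Zbp1 did not (limma, adjusted p between 0.053 and 0.083).

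The second question was the same for heat-killed MJ2. Here 27 of the 40 members rose and none fell, where 3.37% of 10814 rows rose and 0.897% fell, and 22 of the 31 members with a RANKL mean of at least 10 rose, against 2.48% of the rows filtered alike. The median log2 fold change of these 31 was 2.32, where that of the rows filtered alike was -0.018, and over the 38 members tested, 11 of which did not pass, it was 2.37. In 37 of the 38 every heat-killed MJ2 library was above every RANKL library, against 15.4% of the rows tested, and in 30 of the 31, against 14.2% of the rows filtered alike. With no filter on low values, when the adjustment runs over 15503 rows, 15 members passed at the same log2 fold changes, and Bst2, Cmpk2, Dhx58, Ifit1, Ifit3, Ifitm3, Lgals3bp, Oas1a, Oas3, Oasl2, Parp9 and Rtp4 missed the limit at adjusted p between 0.053 and 0.099 (limma). Both treatments are set against the same 3 RANKL libraries, so their values stand side by side and are not independent of each other.

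Fewer members passed with heat-killed MJ2 when 1 library was left out, as did fewer of all rows, 141 to 321 in place of 461. The median log2 fold change of the members stayed between 2.17 and 2.62. Without replicate 2 of heat-killed MJ2, the library that stood apart, 13 members passed. Without its replicate 1 or 3, 11 or 15 passed, and without RANKL replicate 1 or 3, 18 or 17 passed. Dtx3l, Ifi44, Ifit2, Isg15, Oas1g, Oas2, Parp14, Slfn5, Trim30a and Usp18 passed whichever library was left out, 10 of the 27. Bst2, Lgals3bp and Parp9 were lost with every library left out in turn, Dhx58, Ifitm3, Oas3 and Slfn2 with 5 of the 6, Cmpk2, Ifit1, Ifit3, Oas1a, Oasl1 and Oasl2 with 4, Rtp4 with the 3 heat-killed MJ2 libraries, Xaf1 with 2 and Ddx58 and Rsad2 with replicate 1 of heat-killed MJ2. The adjusted p of the lost calls lay between 0.05 and 0.14 (limma). With surface proteins 25 of the 32 calls held whichever library was left out, and the others are named below.

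**Figure D3:**
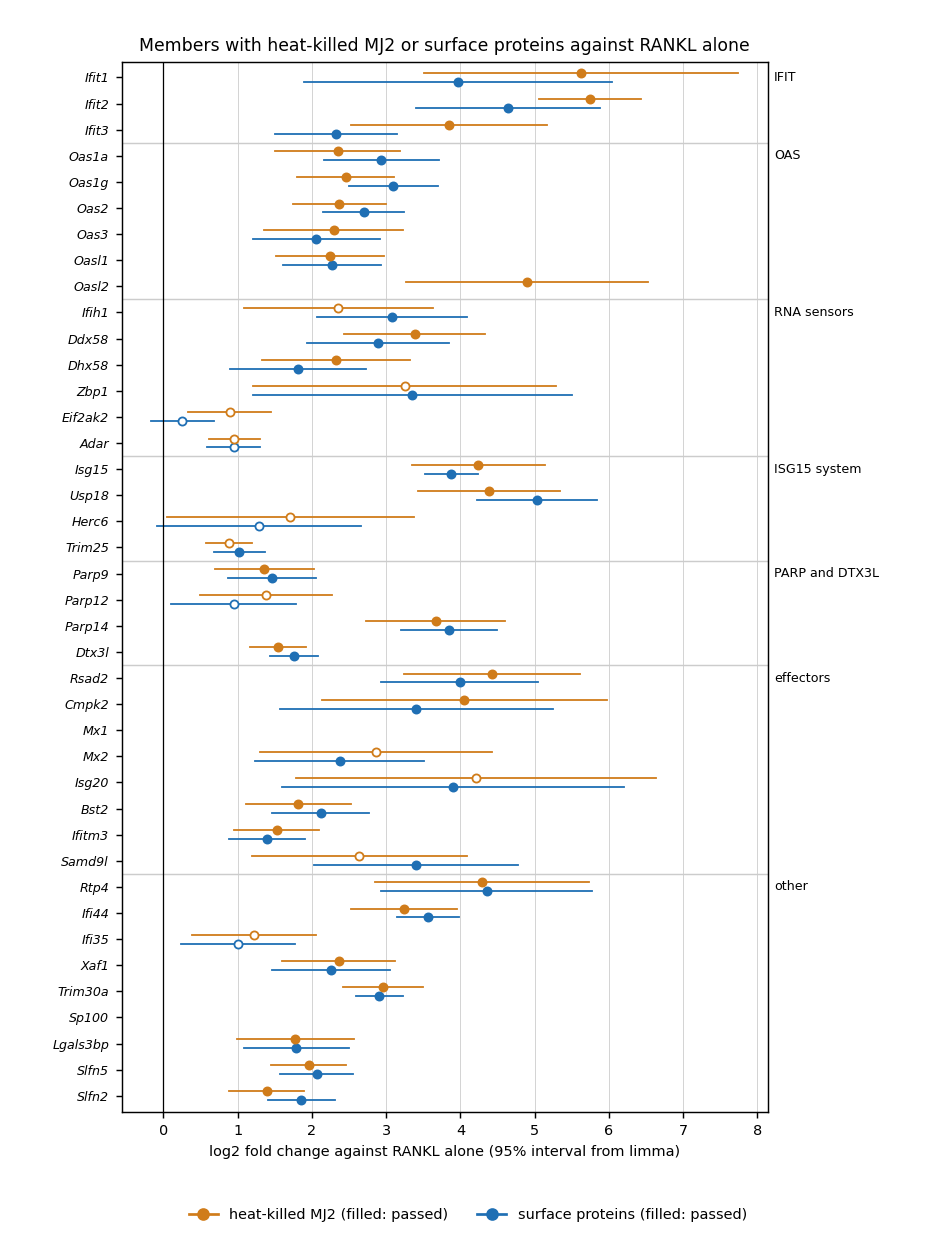
Log2 fold change of each member against RANKL alone for heat-killed MJ2 (orange) and surface proteins (blue), with the 95% interval from limma on the 6 libraries of each comparison. Filled points passed both limits (adjusted p below 0.05, at least a doubling), open points did not, and members without a point were not tested. The points of Ifit2 are fitted values against a group with almost no reads.

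The IFIT proteins bind viral RNA that lacks the marks of host RNA and keep it from the ribosome. Ifit1 had 0, 9.83 and 1.96 adjusted reads in the 3 RANKL libraries, 128, 285 and 104 with heat-killed MJ2, and 50.9, 75.8 and 29.8 with surface proteins. The 3 groups did not overlap, and heat-killed MJ2 was the highest. Its log2 fold change was 3.97 ± 0.86 (SE) with surface proteins (limma, adjusted p = 0.018) and 5.63 ± 0.87 with heat-killed MJ2 (adjusted p = 0.022). The surface protein call was lost without RANKL replicate 3 (adjusted p = 0.061) or without surface protein replicate 1 (0.054) or 2 (0.072), and with 1 library left out the log2 fold change was 3.13 to 4.85.

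Ifit2 was listed at 0, 0.09 and 0 with RANKL alone, at 40.9, 85.3 and 46.1 with heat-killed MJ2, and at 32.3, 45.2 and 10.0 with surface proteins. Set against a floor of 3 reads, the group mean with surface proteins was higher by at least 9.72-fold, and with heat-killed MJ2 by at least 19.1-fold, and with Ifit2 at these bounds the medians of the members stayed at 2.37. Ifit3 went from 1.79, 3.35 and 5.92 to 43.0, 134 and 41.2 with heat-killed MJ2 and to 21.5, 24.0 and 17.7 with surface proteins. Its groups did not overlap either, with log2 fold changes of 2.32 ± 0.34 (SE; limma, adjusted p = 0.0052) with surface proteins and 3.85 ± 0.54 (adjusted p = 0.017) with heat-killed MJ2.

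The OAS enzymes sense double-stranded RNA and make the short messenger 2′-5′ oligoadenylate, which activates the nuclease RNase L. Of the 6 members, 5 rose with surface proteins and 6 with heat-killed MJ2, where 10.2% and 3.37% of all rows tested rose, and 1 of the 6, Oasl2, entered the test only through the heat-killed MJ2 libraries. Oas1g had 78.6, 81.0 and 49.4 adjusted reads with RANKL alone, 313, 495 and 346 with heat-killed MJ2, and 479, 664 and 642 with surface proteins. Oas1a, which shares sequence with it, had 82.4, 111 and 48.4, then 315, 531 and 363, then 489, 658 and 637. Both genes were lowest with RANKL alone without overlap, and the treated groups overlapped at their edges. The log2 fold changes with surface proteins and heat-killed MJ2 were 3.09 ± 0.25 (SE) and 2.45 ± 0.27 for Oas1g (limma, adjusted p = 0.00086 and 0.0074) and 2.93 ± 0.32 and 2.35 ± 0.35 for Oas1a (adjusted p = 0.0021 and 0.019).

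Oas2 followed with 76.8, 98.3 and 61.2 adjusted reads with RANKL alone, 348, 543 and 348 with heat-killed MJ2 and 438, 610.4 and 486 with surface proteins, or log2 fold changes of 2.70 and 2.37. Oas3 and Oasl1 rose as well, by 2.06 and 2.27 on the log2 scale with surface proteins and by 2.30 and 2.25 with heat-killed MJ2. Oasl2, an OAS-like protein, had 0, 3.35 and 0 adjusted reads with RANKL alone, 45.0, 83.3 and 28.4 with heat-killed MJ2, and 7.80, 77.9 and 25.3 with surface proteins. All treated libraries were above all RANKL libraries for this gene, and only the heat-killed MJ2 comparison had enough reads for a test, at 4.89 ± 0.67 (SE; limma, adjusted p = 0.015).

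Among the sensors of nucleic acid, Ddx58 encodes RIG-I, Ifih1 encodes MDA5 and Dhx58 encodes LGP2, which together detect viral RNA in the cytoplasm. Ddx58 had 82.4, 92.8 and 36.6 adjusted reads with RANKL alone, 604, 933 and 590 with heat-killed MJ2, and 371, 632 and 508 with surface proteins. Ifih1 had 12.1, 35.7 and 14.8, then 83.9, 184 and 63.8, then 124, 185 and 195. For both genes all treated libraries were above all RANKL libraries. Ddx58 rose by 2.89 ± 0.39 (SE) on the log2 scale with surface proteins (limma, adjusted p = 0.0042) and by 3.38 ± 0.39 with heat-killed MJ2 (adjusted p = 0.0089). Ifih1 rose by 3.08 ± 0.42 with surface proteins (limma, adjusted p = 0.0041), whereas its 2.36 ± 0.53 with heat-killed MJ2 did not pass (adjusted p = 0.058). Dhx58 had log2 fold changes of 1.81 and 2.32, and its surface protein call was lost without RANKL replicate 1 or surface protein replicate 2 or 3 (adjusted p between 0.051 and 0.063), at log2 fold changes of 1.40 to 2.17 over the libraries left out.

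Zbp1, a sensor of left-handed nucleic acid that can start necroptosis, had 6.47, 0.09 and 7.89 adjusted reads with RANKL alone, 33.8, 66.8 and 25.5 with heat-killed MJ2, and 21.5, 79.8 and 41.6 with surface proteins. Its spread was wide, and it passed with surface proteins (3.35 ± 0.89 (SE), limma, adjusted p = 0.034) and not with heat-killed MJ2 (3.25 ± 0.84, adjusted p = 0.084). Leaving out RANKL replicate 1 or any surface protein library also ended the surface protein call, at adjusted p between 0.051 and 0.12, while the log2 fold change stayed between 2.39 and 3.90.

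The remaining genes of this group had the smallest differences. Eif2ak2, which encodes the kinase PKR that stops translation when it meets double-stranded RNA, had 171, 229 and 169 adjusted reads with RANKL alone, 331, 458 and 280 with heat-killed MJ2, and 206, 240.0 and 228 with surface proteins. The surface protein libraries overlapped those with RANKL alone, with a log2 fold change of 0.26 ± 0.17 (SE; limma, adjusted p = 0.31), and the heat-killed MJ2 libraries lay above both other groups at 0.89 ± 0.23 against RANKL alone (adjusted p = 0.084). Adar, which edits double-stranded RNA and so hides host RNA from the sensors, had 280.3, 301 and 304 adjusted reads with RANKL alone, 512, 645 and 565 with heat-killed MJ2 and 536, 652 and 530.2 with surface proteins. All treated libraries were above all RANKL libraries and the adjusted p was 0.0063 and 0.02 (limma), but the log2 fold change of 0.95 in both comparisons was below a doubling.

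Isg15 is a ubiquitin-like protein that is joined to other proteins after interferon, Herc6 is the main ligase of that reaction in mice, Usp18 removes it and also dampens the interferon receptor, and Trim25 is a ligase that activates RIG-I. Isg15 had 29.9, 28.2 and 30.6 adjusted reads with RANKL alone, 454, 1057 and 401 with heat-killed MJ2, and 389, 480.0 and 481 with surface proteins. Usp18 had 9.27, 22.8 and 11.8, then 279, 455 and 221, then 389, 546 and 509. Neither gene had a treated library anywhere near the RANKL libraries, and with surface proteins Usp18 had a log2 fold change of 5.03 ± 0.33 (SE; limma, adjusted p = 0.00046). With heat-killed MJ2 it was at 4.38 ± 0.40 (limma, adjusted p = 0.0036). The log2 fold change of Isg15 was 3.88 ± 0.15 with surface proteins (limma, adjusted p = 6.5e-05) and 4.24 ± 0.37 with heat-killed MJ2 (adjusted p = 0.003).

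Herc6 did not pass in either comparison. It had 47.8, 9.83 and 32.6 adjusted reads with RANKL alone, 47.1, 172 and 73.6 with heat-killed MJ2, and 60.6, 85.5 and 47.3 with surface proteins, and both treated groups overlapped the RANKL libraries. The log2 fold changes were 1.29 ± 0.57 (SE; limma, adjusted p = 0.14) and 1.71 ± 0.69 (adjusted p = 0.21), and without the second RANKL library, the lowest, they were 0.65 and 1.08. Trim25 was close to a doubling, with a log2 fold change of 1.02 ± 0.14 (SE) that passed with surface proteins and 0.89 ± 0.13 that missed the fold limit with heat-killed MJ2 (limma, adjusted p = 0.0044 and 0.018). The surface protein value fell below a doubling, to 0.97 and 0.96, without RANKL replicate 2 or surface protein replicate 2, and to 0.98 and 0.97 after quantile normalization or scaling to equal totals.

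Parp9, Parp12 and Parp14 attach ADP-ribose to proteins, and Dtx3l is a ubiquitin ligase that works in a complex with Parp9. Parp14 rose most, from 41.1, 36.8 and 23.7 adjusted reads with RANKL alone to 331, 752 and 321 with heat-killed MJ2 and to 398, 473 and 616 with surface proteins. Its log2 fold changes were 3.85 ± 0.27 (SE) with surface proteins and 3.67 ± 0.39 with heat-killed MJ2 (limma, adjusted p = 0.00052 and 0.0071). The neighbours Dtx3l and Parp9 rose by less. Dtx3l had 98.3, 111 and 102 adjusted reads with RANKL alone, 274, 358 and 286 with heat-killed MJ2 and 373, 348 and 335 with surface proteins, and Parp9 had 168, 159.7 and 115, then 331, 535 and 297, then 339, 364 and 533. With surface proteins and heat-killed MJ2 the log2 fold changes were 1.75 and 1.54 for Dtx3l and 1.47 and 1.36 for Parp9. Parp12 had 147, 64.8 and 72.2, then 232, 311 and 174, then 192, 198 and 132. It overlapped the RANKL libraries with surface proteins and passed in neither comparison (log2 fold changes of 0.95 and 1.38, limma, adjusted p = 0.09 and 0.088).

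Of the effectors, Rsad2 encodes viperin, which makes a nucleotide analogue that ends viral RNA chains, and its neighbour Cmpk2 supplies the nucleotide for it. Rsad2 had 5.53, 20.6 and 10.9 adjusted reads with RANKL alone, 277, 359 and 164 with heat-killed MJ2, and 212, 210.3 and 148 with surface proteins. Cmpk2 had 9.28, 0.09 and 2.95, then 86.9, 42.6 and 52.0, then 39.1, 31.7 and 39.5. For this pair all treated libraries were above all RANKL libraries, and for Cmpk2 the heat-killed MJ2 libraries were also above the surface protein libraries. The log2 fold changes were 3.99 ± 0.44 (SE) and 4.42 ± 0.49 for Rsad2 (limma, adjusted p = 0.0021 and 0.008) and 3.41 ± 0.76 and 4.05 ± 0.79 for Cmpk2 (adjusted p = 0.02 and 0.04). The surface protein call of Cmpk2 was lost without RANKL replicate 3 or any surface protein library, at adjusted p between 0.059 and 0.066, with log2 fold changes of 2.56 to 4.18 over the libraries left out.

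Isg20, an exonuclease that degrades RNA, had 13.0, 49.7 and 1.96 adjusted reads with RANKL alone, 209, 403 and 157 with heat-killed MJ2 and 172, 201 and 199.7 with surface proteins. The RANKL libraries differed more among themselves than the treated ones, and the gene passed with surface proteins (3.90 ± 0.95 (SE), limma, adjusted p = 0.027) but not with heat-killed MJ2 (4.21 ± 1.00, adjusted p = 0.069). Its surface protein call was lost without RANKL replicate 1 or any surface protein library, at adjusted p between 0.068 and 0.089, with log2 fold changes of 2.84 to 4.89 over the libraries left out. Mx1, a GTPase against influenza viruses, was listed at 0, 0.06 and 0 with RANKL alone, at 4.11, 19.4 and 17.7 with heat-killed MJ2 and at 0, 15.4 and 8.76 with surface proteins. It was too low for a test against RANKL alone, and with heat-killed MJ2 its mean was at least 4.58-fold above the floor of 3 reads.

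Ifitm3 was the most abundant member, with 5028, 5080.4 and 3231 adjusted reads with RANKL alone, 11128, 15159 and 11641 with heat-killed MJ2 and 11536, 11984 and 10838 with surface proteins. The log2 fold change of Ifitm3 was 1.39 ± 0.21 (SE) with surface proteins and 1.52 ± 0.23 with heat-killed MJ2 (limma, adjusted p = 0.006 and 0.022). Bst2, or tetherin, which holds budding virus at the membrane, rose by 2.12 and 1.82 on the log2 scale. Samd9l and Mx2 rose by 3.40 and 2.37 with surface proteins, and their log2 fold changes of 2.64 and 2.86 with heat-killed MJ2 each had an adjusted p of 0.059 (limma). The GENCODE annotation lists Mx2 as a polymorphic pseudogene. Whether Mx1 or Mx2 makes a working protein in this line was not tested. The surface protein call of Mx2 was lost without surface protein replicate 2 (adjusted p = 0.055), and its log2 fold change was 1.88 to 2.72 over the libraries left out.

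Among the 9 other interferon-induced genes, 7 rose with each treatment, where 10.2% and 3.37% of all rows tested did. Rtp4, a negative regulator of the interferon response first described as a receptor chaperone, had 76.8, 70.2 and 15.8 adjusted reads with RANKL alone, 769, 1094 and 828 with heat-killed MJ2 and 854, 1015 and 917 with surface proteins. Ifi44 had 265, 197 and 192, then 1643, 3118 and 1665, then 2475, 2524 and 2699. Trim30a, a mouse TRIM protein that restrains Toll-like receptor signalling, had 72.1, 74.5 and 72.2, then 490.1, 794 and 481, then 569, 512 and 584. In these 3 genes no treated library came near the RANKL libraries. The log2 fold changes with surface proteins and heat-killed MJ2 were 4.36 ± 0.59 (SE) and 4.29 ± 0.60 for Rtp4 (limma, adjusted p = 0.004 and 0.016), 3.57 ± 0.17 and 3.24 ± 0.29 for Ifi44 (0.00017 and 0.0037), and 2.91 ± 0.13 and 2.95 ± 0.22 for Trim30a (0.00013 and 0.0017).

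Ifi35 had 72.1, 50.8 and 122 adjusted reads with RANKL alone, 166, 230.4 and 150.1 with heat-killed MJ2 and 141, 167 and 155 with surface proteins. All treated libraries were above the RANKL libraries, yet the gene did not pass, with log2 fold changes of 1.00 ± 0.32 (SE; limma, adjusted p = 0.059) and 1.22 ± 0.34 (adjusted p = 0.1). Sp100, a nuclear body protein, had 5.55, 5.48 and 5.92 adjusted reads with RANKL alone, 18.4, 17.4 and 2.92 with heat-killed MJ2 and 39.2, 35.6 and 2.32 with surface proteins, and replicate 3 of each treatment was below the RANKL libraries. Xaf1, Lgals3bp, Slfn5 and Slfn2 rose in both comparisons, by 2.26, 1.79, 2.07 and 1.86 on the log2 scale with surface proteins and by 2.36, 1.78, 1.96 and 1.39 with heat-killed MJ2.

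The third question was whether the treatments differ from each other. None of the 40 members passed between surface proteins and heat-killed MJ2 (limma), where 10.1% of 10916 rows did, 5.08% higher and 4.97% lower with surface proteins. At an unadjusted p under 0.05 in limma there were 7 members, where 35.3% of all rows were under it. The log2 fold change of surface proteins against heat-killed MJ2 was above 0 in 19 members and below 0 in 21, with a median of -0.025, where 52.2% of all rows were above 0 and their median was 0.031. This split rests on single libraries: the median was 0.13 without the second heat-killed MJ2 library and -0.18 without the third, and 17 members changed sign when 1 library was left out. For 17 members the 95% interval of the difference lay within a doubling either way, and for the other 23 it did not, so these could differ by more than a doubling without having passed. Rtp4 had an interval of -0.37 to 0.50, Oasl1 of -0.45 to 0.50 and Adar of -0.39 to 0.38, while Mx1 had -3.91 to 1.51 and Sp100 -2.11 to 3.31.

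All 3 IFIT genes were below 0 in this comparison. With 1 library left out the log2 fold change was -1.97 to -1.23 for Ifit1, -1.81 to -0.98 for Ifit3 and -1.53 to -0.50 for Ifit2. Ifit1 was at -1.66 ± 0.48 (SE; 95% interval -2.82 to -0.50, limma, adjusted p = 0.06), Ifit3 at -1.53 ± 0.46 (-2.65 to -0.40, adjusted p = 0.068) and Ifit2 at -1.11 ± 0.57 (-2.50 to 0.28, adjusted p = 0.22). For Ifit1 and Ifit3 every surface protein library was below every heat-killed MJ2 library, as was the case for Dhx58, Eif2ak2 and Cmpk2, or 5 of 40 members against 20.1% of all rows. In no member was every surface protein library above every heat-killed MJ2 library, against 22.2% of all rows. Eif2ak2 stood at -0.64 ± 0.21 (SE; limma, adjusted p = 0.084). On the other side, the highest values were 0.76 ± 0.31 for Samd9l, 0.72 ± 0.41 for Ifih1, 0.65 ± 0.30 for Usp18 and 0.64 ± 0.23 for Oas1g, with adjusted p between 0.1 and 0.26 (limma). With 1 library left out these were 0.47 to 0.98, 0.41 to 1.16, 0.42 to 0.94 and 0.51 to 0.84, in the same order. Under other settings Ifit1 passed with equal totals (limma, adjusted p = 0.048), with a constant of 5 (0.047), with the replicate block (0.026) and in a trended robust fit (0.0062), in which Ifit3 passed too (0.02). Ifih1 passed without replicate 2 of heat-killed MJ2, at 1.16 (limma, adjusted p = 0.05, rounded up).

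**Figure D4:**
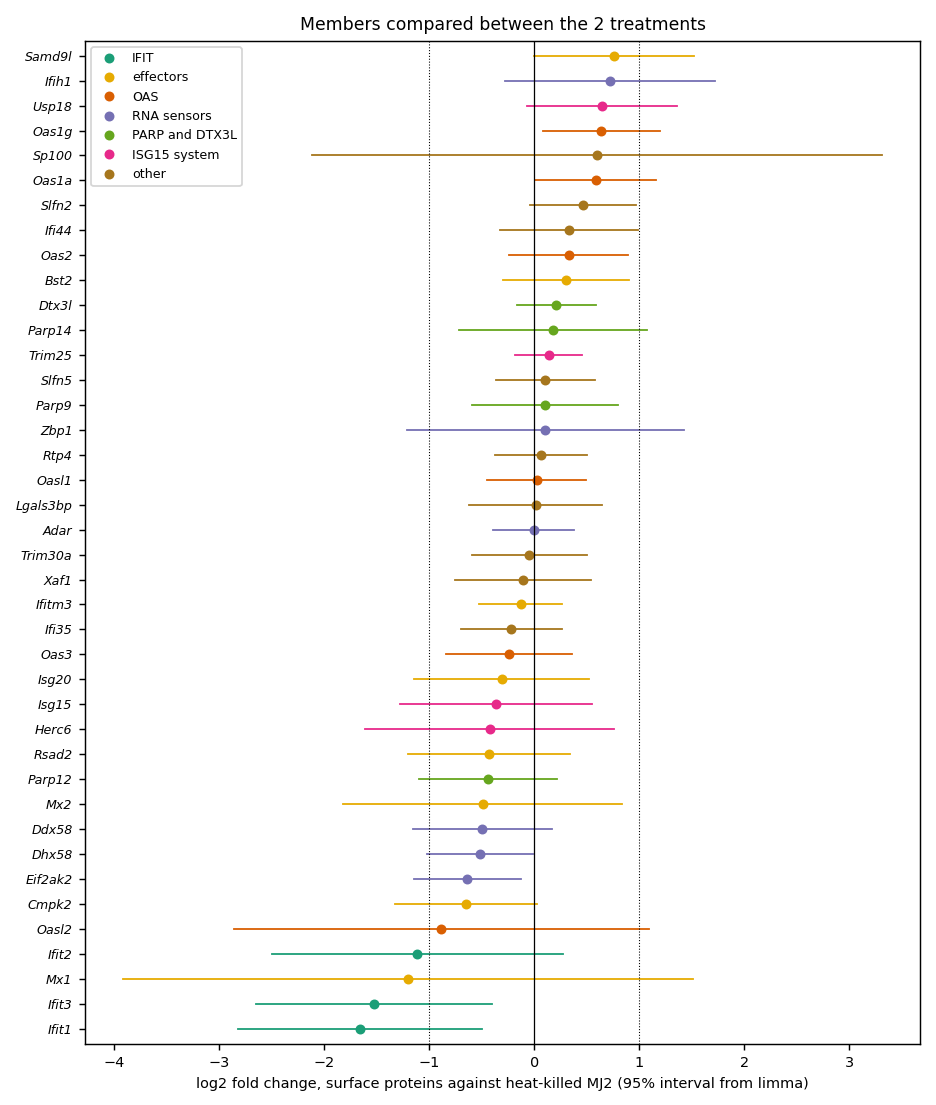
Log2 fold change of surface proteins against heat-killed MJ2 for each of the 40 members, in order of size and coloured by role, with the 95% interval from limma on 6 libraries. The dotted lines mark a doubling either way. The values run from -1.66 for Ifit1 to 0.76 for Samd9l, and no member passed.

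The members stand at the end of a signalling chain, and the other genes of that chain were taken as lists by role. Of 21 genes for type I, II and III interferons none could be tested. They were listed at 0 in all libraries except Ifnz, which reached 2.10 adjusted reads in surface protein replicate 3, below the floor of 3 reads, so interferon transcripts were not detectable at this depth after 4 days. Of 6 receptor genes Ifnlr1 was at 0 throughout. Ifnar2, a chain of the type I interferon receptor, had 375, 448 and 405 adjusted reads with RANKL alone, 478, 619 and 368 with heat-killed MJ2 and 1113, 1106 and 1239.8 with surface proteins. It was higher in the surface protein libraries than in all others, at a log2 fold change of 1.49 ± 0.14 (SE; limma, adjusted p = 0.0014) against RANKL alone and 1.27 ± 0.21 (adjusted p = 0.016) against heat-killed MJ2.

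Among the 3 kinases Jak2 showed the same order of groups. It had 46.8, 63.7 and 99.8 adjusted reads with RANKL alone, 56.3, 102 and 75.5 with heat-killed MJ2 and 265, 304 and 246 with surface proteins. For Jak2 the log2 fold change with surface proteins was 2.0 ± 0.29 (SE; limma, adjusted p = 0.0049) against RANKL alone and 1.83 ± 0.24 (adjusted p = 0.0099) against heat-killed MJ2, and heat-killed MJ2 against RANKL alone gave 0.18 ± 0.34 (adjusted p = 0.8).

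Of the 7 transcription factors reported here, 4 rose with surface proteins and 2 with heat-killed MJ2, where 10.2% and 3.37% of all rows tested rose. Irf7, the factor that amplifies type I interferon, had 43.0, 55.1 and 16.8 adjusted reads with RANKL alone, 359, 765 and 293 with heat-killed MJ2 and 720.1, 703 and 527 with surface proteins, or log2 fold changes of 3.62 ± 0.54 (SE; limma, adjusted p = 0.019) with heat-killed MJ2 and 4.19 ± 0.44 (adjusted p = 0.0019) with surface proteins. Irf9 and Stat2 encode parts of the complex that binds the response element. Irf9 rose by 1.73 and 1.38 with surface proteins and heat-killed MJ2. Stat2 rose by 1.94 ± 0.18 (SE) with surface proteins (limma, adjusted p = 0.0013) and was at 1.38 ± 0.31 (adjusted p = 0.058) with heat-killed MJ2.

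The difference between the treatments did not pass for Stat2, Irf9 or Irf7, with limma adjusted p between 0.2 and 0.32. Irf8, a factor of the myeloid lineage, had 117, 232 and 60.3 adjusted reads with RANKL alone, 323, 574 and 407 with heat-killed MJ2 and 920.0, 859 and 771 with surface proteins. It rose by 2.83 ± 0.46 (SE) with surface proteins (limma, adjusted p = 0.0076), and was higher with surface proteins than with heat-killed MJ2 by 1.00 ± 0.23 (adjusted p = 0.034). Of 4 negative regulators 2 rose with each treatment, where 10.2% and 3.37% of all rows tested rose. They were Socs1 and Socs3, which shut cytokine receptors down. With surface proteins and heat-killed MJ2 Socs1 rose by 2.18 and 2.75 and Socs3 by 4.00 and 3.73 on the log2 scale. Socs1 had 1.79, 7.65 and 4.93 adjusted reads with RANKL alone, so it entered the test only through the treated libraries.

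**Figure D5:**
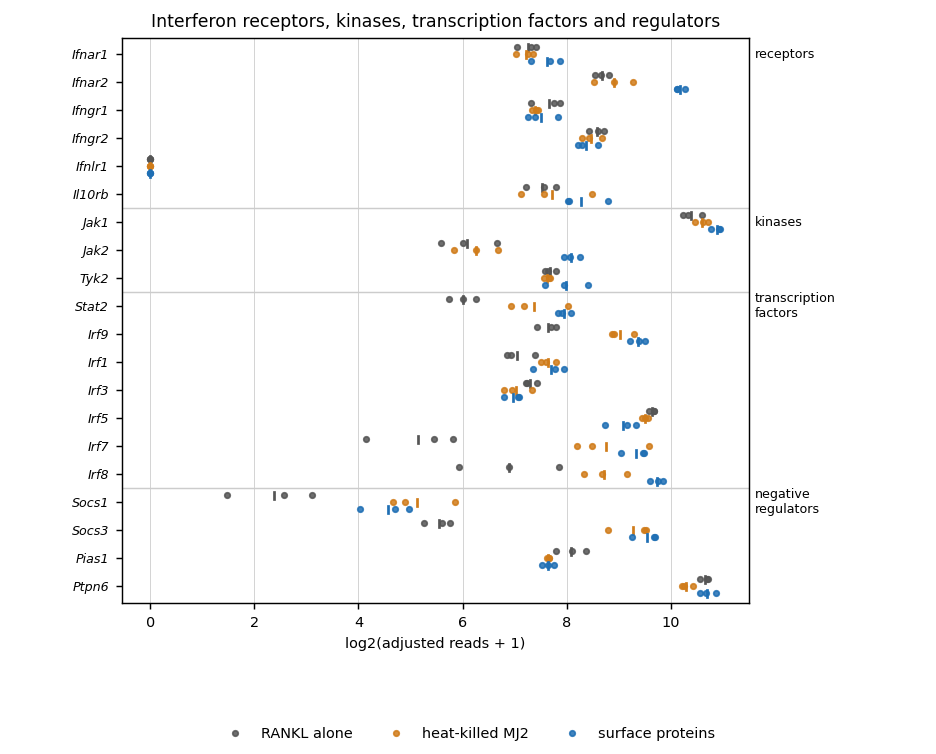
Level of 20 genes of the interferon pathway (receptors, kinases, transcription factors and negative regulators) in the 9 libraries, as log2(adjusted reads + 1). Dots are libraries and short bars are group means, and Ifnar2, Jak1, Jak2 and Irf8 have all surface protein libraries to the right of all other libraries.

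Of 15 upstream sensors and adaptors 5 rose with each treatment and none fell. Of 41 further interferon-induced genes outside the 40 members, 33 were tested with surface proteins and 35 with heat-killed MJ2. Of these 17 and 13 rose, and none fell. Some entered the test only through the treated libraries, among them Ddx60 and Phf11a, with means of 2.74 and 3.21 adjusted reads with RANKL alone. Over all 97 genes of these pathway lists 66 and 68 were tested. Of these 30 rose with surface proteins and 22 with heat-killed MJ2, where 10.2% and 3.37% of all rows tested rose. The 30 and 22 include genes that entered only through the treated libraries. They were not counted again for genes with a RANKL mean of at least 10. Between the treatments 7 of the 70 tested passed, 10.0% of them, which is no more than the 10.1% of all rows. Besides Ifnar2, Jak2 and Irf8, Ticam2 (2.31) and Ifi203 (1.48) were higher with surface proteins on the log2 scale, and Cxcl10 (-2.28) and Mb21d1 (-1.09) were lower, with adjusted p between 0.0036 and 0.029 (limma). None of 10 reference genes passed both limits in any of the 3 comparisons (limma). With surface proteins against RANKL alone 5 of them were at an unadjusted p under 0.05, where 42.3% of all rows tested were, with heat-killed MJ2 3 (22.6%), and between the treatments 3 (35.3%). Tbp and Sdha had an adjusted p of 0.019 and 0.037 with surface proteins (limma) at log2 fold changes of 0.76 and -0.71, below a doubling.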

How the data were processed

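For each of the 9 libraries, the authors deposited 1 log2 value, log2(value + 1) by the step of the lowest values, for each of 23282 gene rows. By the study's methods the libraries were made with a QuantSeq 3′ kit and read single-end for 75 bases, quantile normalization between samples was applied, and genes were called in a spreadsheet tool. Sorted columns were not identical (largest gap at a rank 1.60, log2), and which scaling the values carry is not fully known. Per the labels, the submitters' processing notes name Bowtie2, bedtools and the mm10 build, and the annotation, strand setting and treatment of shared reads are not given in the sources used here.

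Low adjusted reads, between 0.5 and 3.5, all lay within 0.25 of a whole step, where 1 read was worth 0.924 to 1.11 adjusted reads. Values below 0.5 were not part of this check. In RANKL replicate 2, heat-killed MJ2 replicate 1 and surface protein replicate 3 only 7779 rows were at 0, against 10075 to 10875 in the others. Values such as 0.09 for Ifit2 in RANKL replicate 2 are less than 1 read and are not taken as a measured level. Within groups the chi-square per degree of freedom between replicates was 7.47 to 21.2, no libraries were identical, and all were counted. Total adjusted reads per library were 5930926 to 6503682, of which 8.91% to 12.4% fell on the row of Rn45s, a ribosomal RNA.

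Because the files hold log2 values, each comparison was fitted with limma 3.58.1 in R 4.3.3 (lmFit, eBayes) on its own 6 libraries. A row entered the test when 3 or more of the 6 libraries held 10 or more adjusted reads. The Benjamini-Hochberg method was applied over all rows tested, and a row passed when its adjusted p was below 0.05 and its level at least doubled or was cut by as much. Fold changes are on the log2(value + 1) scale, which understates those of low genes. The code was tested on simulated data. Python 3.11.15, pandas 2.3.3 and matplotlib 3.10.9 were used for the rest.

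The members and the gene lists were chosen with earlier results of these data known. In each role group the 3 members with the largest log2 fold change with surface proteins, and every member that did not pass there, are given library by library. Genes of the ligand, receptor, kinase, transcription factor and negative regulator lists are named where they passed against RANKL alone, and other genes were named after their values were seen. 1 further transcription factor was removed from its list for a reason other than its values and is not reported here. Replicate numbers were checked for pairing by the correlation of deviations from the group means. It was 0.018 to 0.106 for the 9 pairs of libraries with the same number, all above 0 and 1 over 0.1. For the other pairs it was -0.076 to 0.031. The main fit did not take the numbers as pairs, and whether libraries of the same number share a batch was not tested. A fit with a replicate block was among the alternatives. Alternatives were other scalings, filters, constants, thresholds and fits, and leaving out each library.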

Additional observations from a re-analysis of the deposited data

How the results depend on the processing

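With surface proteins against RANKL alone the number of members that rose stayed within 1.5 times the 32 reported under every other scaling, filter, constant, threshold and fit, and leaving out 1 library gave 25 to 32. With heat-killed MJ2 it moved from 27 to 15 with no filter on low values, and leaving out 1 library gave 11 to 24. Between the treatments 0 members passed, but 1 passed with equal totals, with a constant of 5 and with the replicate block (Ifit1 each time), 2 passed with a trended robust fit and at unadjusted p-values (Ifit1 and Ifit3), and leaving out 1 library gave 0 to 1. Over all rows, 1902 passed with surface proteins (3163 with no fold limit, 1462 to 1884 without 1 library), 461 with heat-killed MJ2 (267 with no filter, 289 with the replicate block, 799 at unadjusted p-values, 141 to 321 without 1 library) and 1098 between the treatments (1949 with no fold limit, 265 to 1132 without 1 library). With the replicate block 31 and 27 members rose with surface proteins and heat-killed MJ2, where Zbp1 (surface proteins) and Lgals3bp and Parp9 (heat-killed MJ2) lost their call and Ifih1 and Samd9l (heat-killed MJ2) gained one; the replicate numbers were not taken as pairs. The cause of these shifts was not tested, beyond there being fewer libraries when 1 is left out.

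No member tested changed its direction against RANKL alone under any alternative. Of 331 values of single members with surface proteins under alternatives that keep all libraries, 320 kept their side of the threshold, 9 were lost and 2 gained, and of 342 with heat-killed MJ2, 304 kept it, 18 were lost and 20 gained. Between the treatments the sign turned for members near 0: Lgals3bp (-0.035 with quantile normalization, -0.068 with equal totals), Oasl1 (-0.012 and -0.057) and Rtp4 (-0.019 with equal totals). Leaving out 1 library in turn gave log2 fold changes on both sides of 0 for 17 members: Adar -0.10 to 0.083, Herc6 -0.84 to 0.087, Ifitm3 -0.21 to 0.008, Isg15 -0.63 to 0.069, Isg20 -0.60 to 0.073, Lgals3bp -0.15 to 0.26, Mx1 -2.0 to 0.019, Mx2 -0.94 to 0.10, Oasl1 -0.068 to 0.21, Parp14 -0.033 to 0.58, Parp9 -0.095 to 0.36, Rtp4 -0.039 to 0.21, Slfn5 -0.025 to 0.23, Sp100 -0.15 to 1.78, Trim30a -0.17 to 0.19, Xaf1 -0.29 to 0.099 and Zbp1 -0.36 to 0.56. The signs of these members between the treatments rest on single libraries. The depth limits Mx1, Oasl2 and Sp100, which were too low for a test in at least 1 comparison.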
